A study of Mus musculus with 9 samples.

Results

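The promoter regions of Mef2c and Mef2d examined here are those that the deposited files name Mef2c_1, Mef2d_1 and Mef2d_2. They were taken by region name, and a CpG site (a cytosine followed by a guanine) was kept where at least 30 reads covered it in all 9 libraries. This left 33 of 310 tested CpG sites and 3 of 26 regions with reads, with 6 sites in Mef2c_1, 17 in Mef2d_1 and 10 in Mef2d_2. All CpG sites listed for these regions passed the coverage minimum. The files also list a region Mef2c_2 with 7 CpG sites, which has no reads in any library and gives no value.

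Heart muscle cells were isolated from the ventricles of CD-1 mouse embryos (embryonic day 13.5) and kept as primary cultures, and each library comes from bisulfite-treated DNA, in which unmethylated cytosines are read as T and methylated ones as C. After 48 h in culture the cells received 0.012 pmol of siRNA and were collected 72 h later, with 3 libraries each for negative siRNA (the AllStars control), DNMT3a siRNA and DNMT3b siRNA. The DNMT3a and DNMT3b reagents were each a mix of 4 siRNAs. Per the labels' protocols, ventricles of a litter were pooled, and cardiomyocytes were enriched by magnetic sorting for the surface protein VCAM1. The assay amplifies promoters of 15 genes and does not measure Dnmt3a or Dnmt3b, so the degree of knockdown and the purity of the sorted cells were not analysed here. The labels do not say that replicates came from separate litters, so every p-value measures the spread between libraries, which may be technical. Each library held 27193672 to 32543683 cytosine calls, and the sites of Mef2c and Mef2d received 354311 to 518894 of these.

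Mef2c and Mef2d encode myocyte enhancer factors, DNA-binding proteins of the MADS-box family that switch on muscle and heart genes. Mef2c is needed for formation of the heart tube and right ventricle, and Mef2d is expressed widely and is known as a mediator of stress responses in the adult heart. DNMT3a and DNMT3b are the enzymes that place methyl groups on unmethylated CpG sites. Promoters rich in CpG are usually free of methylation, whereas isolated CpG sites are usually methylated.

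The sequences that the files give around the measured cytosines show how the regions relate. The files list each cytosine with its offset in the region and the 2 bases after it, so neighbouring entries can be joined into short stretches. The stretches below occur with the same letters in both Mef2d regions, and they are shown because they establish that the regions overlap. CpG sites are in capitals.
Mef2d_2 from offset 304 and Mef2d_1 from offset 26: CGcacaa
Mef2d_2 from offset 336 and Mef2d_1 from offset 58: caccaCGcccag
Mef2d_2 from offset 351 and Mef2d_1 from offset 73: cCGtCGg

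The overlap was exact. With the offsets of Mef2d_1 moved by 278, all 24 cytosines listed in the window of 137 bases matched in position and context in both regions, with none left over on either side. The next best shift matched 11.1% of the cytosines. Mef2d_2 and Mef2d_1 are therefore 1 continuous stretch of 698 bases between the first and last listed cytosine, with 23 different CpG sites rather than 27. The 4 CpG sites present in both regions therefore have 2 entries each, drawn from the same DNA. Libraries were made by tagmentation, which fragments the amplicons, and from which amplicon a read within the overlap came was not determined here.

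The stretches around the most methylated sites of each gene are given for comparison. In Mef2c_1 it is the CpG at offset 115, and in Mef2d_2 that at offset 82. Both stretches carry CGC. In Mef2d_1 the 6 sites in that context ranged from 0.636%, at offset 222, to 15.6%. Their median was 1.27%, beside medians of 0.399% (CGA), 0.444% (CGG) and 0.995% (CGT) in the same region. In Mef2d_2 the CGC median was 12.8%, below 21.4% for CGA and above 3.27% (CGG) and 0.820% (CGT). In Mef2c_1 the medians were 89.9% (CGC), 79.1% (CGT) and 69.2% (CGA). Some contexts have only 1 or 2 sites in a region, and whether context has a part in the level was not tested.
Mef2c_1 from offset 114: cCGcctgccta
Mef2d_2 from offset 82: CGcctcttctcatctctcccacaa
Mef2d_1 from offset 220: ccCGcag

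The files give no chromosome position for the regions. In RefSeq's annotation of GRCm38.p6, the assembly to which mm10 corresponds, Mef2c lies on chromosome 13 at 83504017 to 83667079 and Mef2d on chromosome 3 at 88141941 to 88172091. The cytosines of Mef2c_2 matched RefSeq's Mef2c promoter window at every base compared (186 bases), which places this region without reads at chr13:83503898-83504245 on the plus strand, across a gene start at 83504034. Mef2c_1, Mef2d_1 and Mef2d_2 did not match the windows of their genes, which run from 250 bases before to 50 after a start, and their distance from the start was not determined here. Over all regions, 10 matched a window exactly, all in the sense of the gene.

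The bases directly before a RefSeq start differ in CpG content between the genes, as sequences of equal length show. The starts used, 83504034 for Mef2c and 88142372 for Mef2d, both lie inside the gene spans given above. The whole Mef2d stretch lies inside its gene span, which begins at 88141941. The Mef2c stretch below, the part covered by Mef2c_2, holds 1 CpG in 136 bases, and the Mef2d stretch holds 8. These stretches were not measured in the libraries and are shown for their CpG content only.
Mef2c chr13:83503898-83504033 plus strand: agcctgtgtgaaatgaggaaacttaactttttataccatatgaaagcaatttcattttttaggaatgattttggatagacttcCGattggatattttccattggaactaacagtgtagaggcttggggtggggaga
Mef2d chr3:88142236-88142371 plus strand: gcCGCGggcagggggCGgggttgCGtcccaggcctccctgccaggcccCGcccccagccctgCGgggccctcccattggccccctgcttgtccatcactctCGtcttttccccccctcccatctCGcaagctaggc

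Over the full 250 bases before a start, the Mef2d window, for the start at 88142372 inside the gene span, holds 19 CpG sites. Of 32851 RefSeq windows, 19.7% hold that many or more. The 3 starts of Mef2c in the table have 1, 6 and 4, beside a median of 6 over all windows. The measured regions showed the same order of CpG content, with 1.53 CpG per 100 bases in Mef2c_1, 2.43 in Mef2d_2 and 4.13 in Mef2d_1. Among the 26 regions with reads these densities ranked 9, 17 and 22 from the lowest. Across those 26 regions, density and level had a Spearman correlation of -0.54, a description over regions that share libraries.

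Mef2c_1 was highly methylated and the Mef2d regions were mostly unmethylated, in every library. Mef2c is represented by Mef2c_1 alone, whose distance from a gene start was not determined, so the values do not give the level at the Mef2c start. A site's level is its percent of reads with C, and a region's level averages its sites with equal weight. Mef2c_1 stood at 81.4% ± 1.25 (SD, n = 9 libraries), Mef2d_2 at 15.3% ± 1.24 and Mef2d_1 at 1.71% ± 0.61. Mef2c_1 exceeded the mean of the Mef2d regions by 72.9 points ± 1.34, with a range of 71.1 to 74.9 points, in 9 of 9 libraries. Mef2d_2 exceeded Mef2d_1 by 13.5 points ± 0.84, with a range of 12.1 to 14.5 points, again in 9 of 9 libraries. Each of these differences gave the smallest p that 9 libraries allow (exact two-sided sign-flip permutation p = 0.0039).

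In the ranking of the 26 regions by level, Mef2c_1 was the 24th from the lowest, Mef2d_2 the 10th and Mef2d_1 the 5th. The neighbours of Mef2c_1 among other genes were Tnnt2_2, of cardiac troponin T, at 81.4% ± 2.43, and Myh6_2, of the alpha myosin heavy chain, at 69.5% ± 1.59. Mef2c_1 and Tnnt2_2 did not differ beyond their spread, since Mef2c_1 was higher in 5 of 9 libraries. The neighbours of Mef2d_2 were Cdkn1C_1 at 20.8% ± 2.91 and Camta2_2 at 12.6% ± 1.25, and it lay above Camta2_2 in 8 of 9 libraries. Mef2d_1 lay between NPPB_1 at 4.26% ± 0.54 and Camta2_1 at 0.297% ± 0.12, without overlap with either.

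Non-CpG cytosines give the background of reads carrying C. They stood at 0.399% ± 0.26 in Mef2c_1, 0.148% ± 0.0072 in Mef2d_2 and 0.293% ± 0.14 in Mef2d_1 (SD, n = 9; the cytosine at offset 415 of Mef2d_1 left out, chosen after its values were seen). This background is pooled over all non-CpG reads of a region. All 6 sites of Mef2c_1 and all 10 of Mef2d_2 were above it in 9 of 9 libraries. So were 10 of the 17 sites of Mef2d_1, while the other 7 were not above it in every library. Being above a pooled value does not by itself show methylation, since single non-CpG cytosines averaged up to 1.24% in Mef2d_2 and 0.661% in Mef2d_1. Offsets 352 (0.820%) and 355 (1.01%) of Mef2d_2 lay below those values. So did offsets 222 (0.636%), 374 (0.431%) and 385 (0.454%) of Mef2d_1. In Mef2d_1 the background was 0.646% in negative siRNA replicate 3 and 0.183% to 0.310% in the other 8 libraries. In Mef2c_1 it was 1.01% in DNMT3a siRNA replicate 3 and 0.189% to 0.570% elsewhere.

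Within Mef2c_1 the sites ranged from 69.2% to 92.1%. The highest was offset 115, where the negative siRNA libraries gave 91.5%, 90.7% and 93.6%, the DNMT3a siRNA libraries 91.9%, 91.5% and 91.6%, and the DNMT3b siRNA libraries 92.8%, 93.1% and 92.2%. The lowest was offset 348, with 67.3%, 74.6% and 75.0% in negative siRNA, 59.1%, 72.6% and 67.9% in DNMT3a siRNA and 68.3%, 72.1% and 66.3% in DNMT3b siRNA. The groups overlapped at offset 348, and its SD over 9 libraries, 5.00 points, was the widest of the region, where offset 115 had 0.91. Site 348 was also the least covered, with 505 to 852 reads, and the widest 95% Wilson interval of a single value in Mef2c_1 was ± 4.05 points. These intervals cover counting error only, since several reads can come from 1 original molecule through PCR.

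Along the joined Mef2d stretch the level was high at the Mef2d_2 end and low at the Mef2d_1 end. The site at offset 50 of Mef2d_2 averaged 41.4% and that at offset 82, the highest, 57.6%. The next sites were at 10.3% (offset 195), 1.52% (237), 18.1% (261) and 3.27% (277), so the change along the stretch was not monotonic. The 4 shared sites followed at 15.2%, 3.32%, 0.820% (the lowest of Mef2d_2) and 1.01% as read in Mef2d_2. The 13 sites of Mef2d_1 beyond the overlap averaged 1.39% or less, down to 0.325% at offset 294. Over the 23 sites, with the shared ones taken as read in Mef2d_1, position and level had a Spearman correlation of -0.87. This is a description over sites that share libraries.

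**Figure D1:**
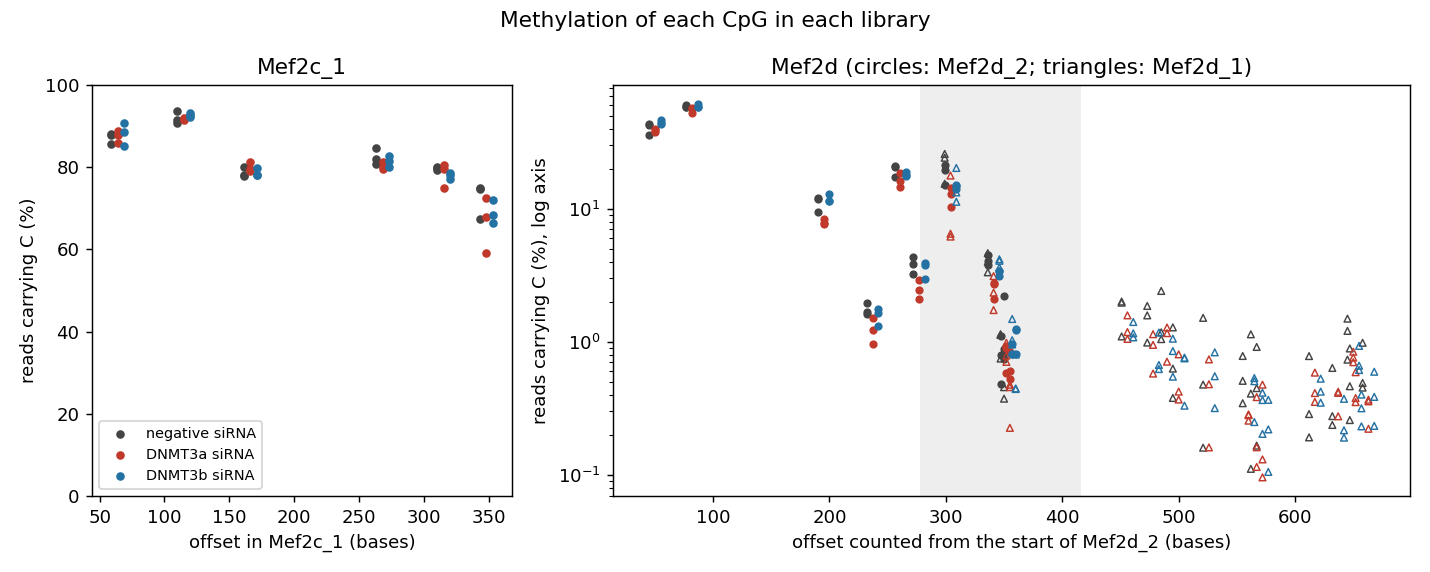
Percent of reads carrying C at each CpG (y) against offset in bases (x), for Mef2c_1 on a linear axis and for the joined Mef2d stretch on a log axis, where a point is 1 library, groups are shifted sideways to be visible, and the shaded band is the overlap. Mef2c_1 sites lie between 59.1% and 93.6%, and Mef2d sites go from 61.6% at the highest to at most 2.41% in a single library beyond the overlap.

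At the lowest site of Mef2d_1, offset 294, negative siRNA libraries gave 0.449%, 0.166% and 0.915%, DNMT3a siRNA libraries 0.476%, 0.131% and 0.0958%, and DNMT3b siRNA libraries 0.220%, 0.366% and 0.105%. The groups overlapped there, and the highest of the 9 values came from the library with the high non-CpG background. The region level of Mef2d_1 rested largely on offset 26, its highest site at 15.6% ± 7.06, which had only 71 to 124 reads. Without offset 26 the mean of the other 16 sites was 0.837% ± 0.25. Median coverage of a CpG was 21293 reads in Mef2d_1, 3377 in Mef2d_2 and 2283.5 in Mef2c_1.

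The 4 shared CpG sites allowed the entries of both Mef2d regions to be compared for the same CpG. Averaged over the 4 sites, Mef2d_2 minus Mef2d_1 was -0.037 points ± 1.10 (SD, n = 9; exact two-sided sign-flip permutation p = 0.92). That mean runs over sites that differed in opposite directions, and its spread comes mostly from offset 26, where the SD of the difference was 4.37 points. The site at offset 304 of Mef2d_2, which is offset 26 of Mef2d_1, stood at 15.2% ± 3.28 and 15.6% ± 7.06 in the respective regions (exact sign-flip permutation p = 0.82). The next, offset 341 or 63, stood at 3.32% ± 0.74 and 3.44% ± 0.93 (exact permutation p = 0.49). The site at offset 352 or 74 was at 0.820% ± 0.19 and 0.995% ± 0.24, and was lower in Mef2d_2 in 8 of 9 libraries (exact permutation p = 0.035, or 0.070 after Benjamini-Hochberg adjustment over the 4 tests). The last, offset 355 or 77, was at 1.01% ± 0.51 and 0.501% ± 0.20, and was higher in Mef2d_2 in 8 of 9 libraries (exact permutation p = 0.012, adjusted 0.047).

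Coverage of the shared sites differed between the regions and in both directions. Offset 26 of Mef2d_1 had 71 to 124 reads where the same CpG had 2278 to 4585 in Mef2d_2. Offset 77 had 10074 to 17878 reads in Mef2d_1 against 815 to 1718 for the same CpG in Mef2d_2. Whether coverage has a part in the difference at offsets 355 and 77 was not tested.

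**Figure D2:**
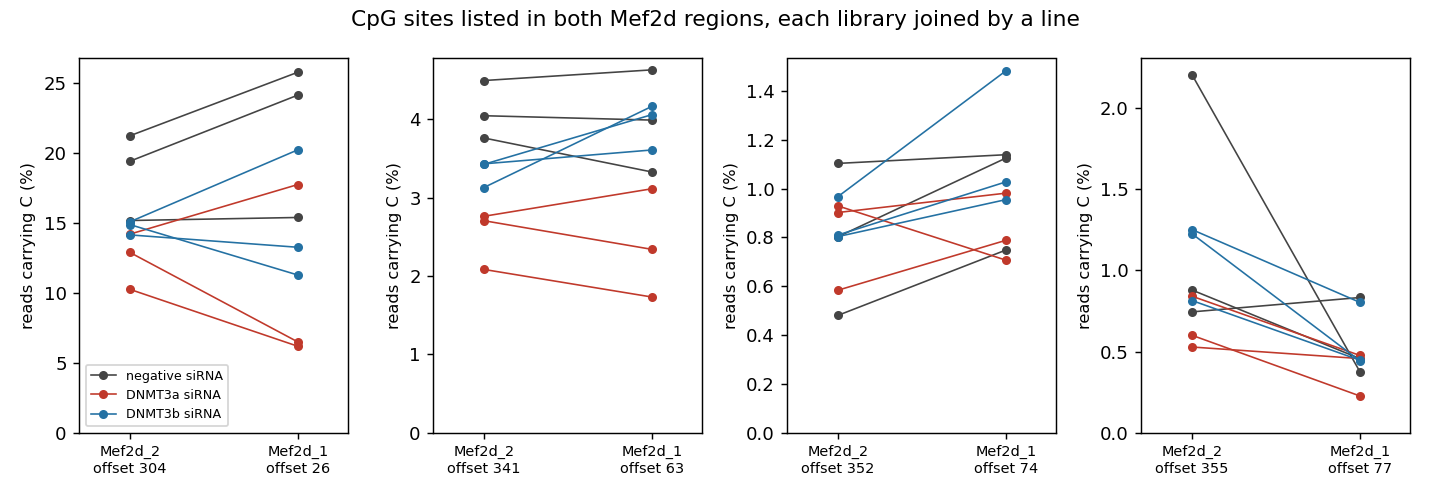
Percent of reads carrying C (y) at the 4 CpG sites listed in both Mef2d regions, with a line for each of the 9 libraries joining its value in Mef2d_2 to its value in Mef2d_1. The first 2 sites average 15.2% and 15.6%, and 3.32% and 3.44%, and the last is higher in Mef2d_2 in 8 of 9 libraries.

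DNMT3a siRNA was set against negative siRNA to ask whether these promoters change in methylation when DNMT3a is targeted. Mef2d_2 was lower with DNMT3a siRNA, while Mef2c_1 differed by less than the spread between libraries. Mef2d_2 levels were 16.3%, 14.8% and 16.9% in negative siRNA and 14.2%, 13.1% and 14.3% in DNMT3a siRNA, so all 3 DNMT3a siRNA libraries lay below all 3 negative ones. The same held for 5 of the 26 regions (19.2%), Mef2d_2 among them, and 3.85% of regions were higher without overlap. The means were 13.9% ± 0.67 and 16.0% ± 1.07 (SD, n = 3 each). They differed by -2.16 points, with p = 0.10 in an exact permutation test (two-sided), the minimum for 3 against 3. On reads summed over sites the log2 odds ratio, the change in the ratio of methylated to unmethylated reads, was -0.38 ± 0.11 SE, and edgeR's quasi-likelihood test did not call it after Benjamini-Hochberg adjustment over 26 regions (adjusted p = 0.0935). DESeq2 called it, at an adjusted p of 0.0421, while over all alternatives the adjusted p ranged from 0.0421 to 0.344. edgeR called 0% of regions in this comparison.

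Mef2d_1 levels were 2.26%, 1.61% and 2.87% in negative siRNA and 1.81%, 0.982% and 0.917% in DNMT3a siRNA, and the groups overlapped. Its log2 odds ratio was -0.57 ± 0.29 SE (edgeR adjusted p = 0.297). Without negative siRNA replicate 3, the library with the high non-CpG background, it was -0.24 (the range over single libraries left out was -0.81 to -0.24), and its part in the result was not tested beyond that. Mef2c_1 levels were 80.6%, 82.0% and 83.5% in negative siRNA and 79.1%, 81.9% and 81.2% in DNMT3a siRNA, with a log2 odds ratio of -0.05 ± 0.098 SE (edgeR adjusted p = 0.842), or 0.029 without negative siRNA replicate 3.

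**Figure D3:**
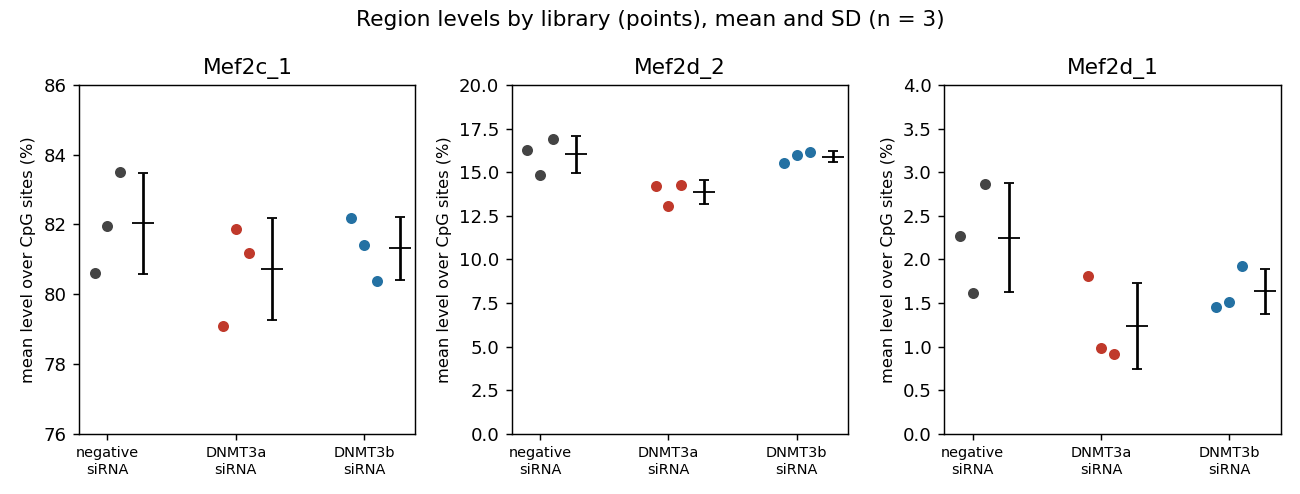
Mean level over CpG sites in percent (y) for each library (points) by siRNA (x), with the mean and SD of 3 libraries beside them, on a separate scale for each region that starts at 76% for Mef2c_1. The 3 DNMT3a siRNA libraries of Mef2d_2 sit at 13.1% to 14.3%, below all negative siRNA libraries (14.8% to 16.9%) and all DNMT3b siRNA libraries.

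Site by site, 0 of the 33 sites were called by edgeR, which called 0% of all 310 sites in this comparison, and limma called 0 as well. DESeq2 called 4 of 310, of which 1 was a Mef2d site, offset 195 of Mef2d_2. At an unadjusted p under 0.05, 9 of the 33 sites were lower and 0 higher with DNMT3a siRNA, against 8.06% of all tested sites lower and 4.52% higher. All 9 lay in Mef2d, with 5 in Mef2d_2 and 4 in Mef2d_1, and 4 of them are 2 shared CpG sites, each lower in the entries of both regions. The 3 libraries of each group did not overlap at 9 member sites, all lower, where 10.6% of all tested sites were lower and 4.52% higher without overlap. In mean, 25 of the 27 Mef2d entries were lower, with a median log2 odds ratio of -0.52 beside -0.11 over all 310 sites. The entries share libraries and list the shared CpG sites in both regions. Of the 25, 16 lie in Mef2d_1, where only 10 of 17 sites were above the pooled non-CpG background in every library. How far the 25 and the median depend on a single library was not tested. The count of 9 fell to 5 when negative siRNA replicate 3 was left out, with 1 site then higher, and to 5 when DNMT3a siRNA replicate 2 was. It was 6 to 12 when any other single library was left out.

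The smallest p-values belonged to 2 of the shared CpG sites. At offset 341 of Mef2d_2 the negative siRNA libraries gave 3.76%, 4.05% and 4.50%, the DNMT3a siRNA libraries 2.76%, 2.08% and 2.71%, and the DNMT3b siRNA libraries 3.13%, 3.43% and 3.43%. DNMT3a siRNA lay below both other groups without overlap. Its log2 odds ratio against negative siRNA was -0.74 ± 0.17 SE (edgeR adjusted p = 0.173). The same CpG read through Mef2d_1, at offset 63, gave 3.33%, 3.99% and 4.63% in negative siRNA, 3.11%, 1.73% and 2.34% in DNMT3a siRNA and 4.17%, 3.61% and 4.06% in DNMT3b siRNA. There too DNMT3a siRNA lay below both other groups without overlap, with a log2 odds ratio of -0.78 ± 0.25 SE (edgeR adjusted p = 0.375) from 8778 to 15691 reads. This CpG is the one in caccaCGcccag, shown above.

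At offset 304 of Mef2d_2, in CGcacaa, the negative siRNA libraries gave 19.4%, 15.2% and 21.2%, the DNMT3a siRNA libraries 14.2%, 10.2% and 12.9%, and the DNMT3b siRNA libraries 14.9%, 14.1% and 15.1%. Both DNMT3a and DNMT3b siRNA lay below negative siRNA without overlap. The log2 odds ratio for DNMT3a siRNA was -0.68 ± 0.20 SE (edgeR adjusted p = 0.313). The same CpG at offset 26 of Mef2d_1 gave 24.1%, 15.4% and 25.8% in negative siRNA, 17.7%, 6.17% and 6.48% in DNMT3a siRNA and 11.3%, 13.3% and 20.2% in DNMT3b siRNA. These groups overlapped, and a single value there had a Wilson interval as wide as 16.4% to 34.1% (95%, 87 reads). Leaving the shared sites out of Mef2d_2, an alternative chosen after seeing the data, gave a region log2 odds ratio of -0.33 (edgeR adjusted p = 0.173).

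The other Mef2d_2 sites without overlap between DNMT3a and negative siRNA were offsets 82, 195, 237 and 277. Offset 82, the highest, gave 58.0%, 57.7% and 59.7% in negative siRNA and 55.9%, 52.4% and 56.9% in DNMT3a siRNA. Offset 195 gave 9.45%, 11.8% and 11.9% against 7.79%, 7.71% and 8.30%. The levels at offset 237 were 1.75% ± 0.18 and 1.24% ± 0.28, and those at offset 277 were 3.79% ± 0.53 and 2.48% ± 0.42. The lowest site, offset 352, was at 0.796% ± 0.31 and 0.805% ± 0.19, and differed by less than the spread between libraries. In Mef2d_1 the sites without overlap, besides offset 63, were offsets 282 and 385, at means of 0.274% against 0.546% and 0.315% against 0.642%, where the non-CpG background averaged 0.261% with DNMT3a siRNA and 0.366% with negative siRNA.

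**Figure D4:**
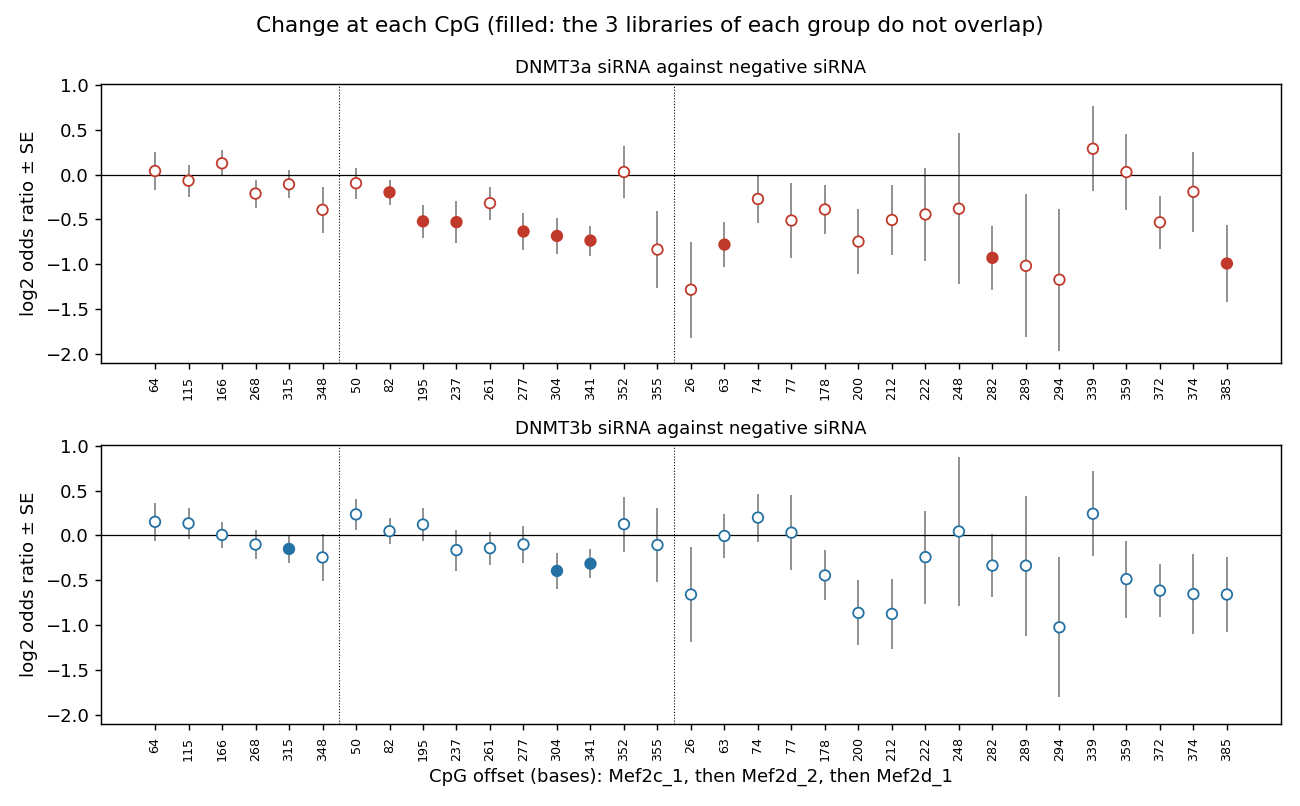
Log2 odds ratio with SE (y) at each of the 33 CpG sites (x, by offset, in the order Mef2c_1, Mef2d_2, Mef2d_1) for DNMT3a siRNA and for DNMT3b siRNA against the same negative siRNA libraries. Filled points are sites whose groups do not overlap, 9 with DNMT3a siRNA and 3 with DNMT3b siRNA, and none passed the edgeR test after adjustment.

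DNMT3b siRNA was compared in the same way, against the same negative siRNA libraries. The levels of all 3 regions overlapped with negative siRNA, where 19.2% of the 26 regions were lower and 0% higher without overlap. Mef2d_2 levels were 15.5%, 16.0% and 16.1%, a mean of 15.9% ± 0.32 against 16.0% ± 1.07, with a log2 odds ratio of -0.12 ± 0.11 SE (edgeR adjusted p = 0.562), or -0.057 without negative siRNA replicate 3 and -0.18 without DNMT3b siRNA replicate 3. Mef2c_1 levels were 82.2%, 81.4% and 80.4%, with a log2 odds ratio of -0.02 ± 0.098 SE (edgeR adjusted p = 0.878). Mef2d_1 levels were 1.45%, 1.52% and 1.93%, with a log2 odds ratio of -0.37 ± 0.29 SE (edgeR adjusted p = 0.493), which became -0.05 when replicate 3 of negative siRNA was left out and -0.62 when replicate 2 was. In each of the 3 same-numbered pairs of libraries, a pairing the labels do not give, Mef2d_1 was lower with DNMT3b siRNA. Without offset 26, chosen after seeing the data, replicate 2 was instead higher with DNMT3b siRNA (0.782% against 0.754% in negative siRNA). With reads pooled over the region it was also higher (0.702% against 0.637%). With the replicate number as a block the edgeR adjusted p of Mef2d_1 was 0.564. edgeR called 0% of regions.

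Of the 33 sites, 0 were called by edgeR, limma or DESeq2, and edgeR called 0% of all sites. At an unadjusted p under 0.05, 1 site was lower and 0 were higher, against 10% and 0.968% of all tested sites. Leaving out replicate 2 of negative siRNA made that count 5, and leaving out replicate 1 of DNMT3b siRNA made it 2. It was 0 when replicate 3 of negative siRNA or replicate 2 of DNMT3b siRNA was left out, with 1 site then higher in the former case. Groups did not overlap at 3 sites, all lower, where the shares over all sites were 18.4% lower and 2.26% higher. These were offsets 304 and 341 of Mef2d_2, both shared CpG sites, and offset 315 of Mef2c_1. The same 2 CpG sites overlapped between the groups as read in Mef2d_1, where at offset 63 the means were 3.95% ± 0.30 with DNMT3b siRNA and 3.98% ± 0.65 with negative siRNA. Offset 315 of Mef2c_1 was at 78.0% ± 0.81 against 79.7% ± 0.46.

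The smallest p-values with DNMT3b siRNA were all in Mef2d_1, at sites of low level that were above the pooled non-CpG background in 9 of 9 libraries. Offset 200 gave 1.58%, 0.987% and 1.86% in negative siRNA and 0.670%, 0.624% and 1.17% in DNMT3b siRNA, with a log2 odds ratio of -0.86 ± 0.36 SE (edgeR adjusted p = 0.441). The others were offset 212, at 0.818% ± 0.26 against 1.55% ± 0.75, and offset 372, at 0.736% ± 0.17 against 1.14% ± 0.38. The log2 odds ratio at offset 212 was -0.87, or -0.49 without negative siRNA replicate 3, and that at offset 372 was -0.61, or -0.39 without negative siRNA replicate 1. The groups overlapped at all 3 of these sites.

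The third contrast set DNMT3a siRNA against DNMT3b siRNA. Mef2d_2 was lower with DNMT3a siRNA, at 13.9% ± 0.67 against 15.9% ± 0.32, lying -2.04 points apart without overlap (p = 0.10, exact permutation, two-sided, the minimum). Of the 26 regions, 3.85% were lower and 11.5% higher without overlap. The log2 odds ratio was -0.26 ± 0.11 SE and was not called by edgeR (adjusted p = 0.344), which called 0% of regions. It was -0.15 without DNMT3a siRNA replicate 2. Mef2c_1 (log2 odds ratio -0.04 ± 0.098 SE, edgeR adjusted p = 0.818) and Mef2d_1 (-0.20 ± 0.29 SE, edgeR adjusted p = 0.697) differed by less than their spread. The value of Mef2d_1 was -0.035 when replicate 3 of DNMT3a siRNA was left out and -0.37 when replicate 1 was. All 10 sites of Mef2d_2 were lower in mean with DNMT3a siRNA, with a median log2 odds ratio of -0.35 beside 0.09 over all 310 sites.

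Of the 33 sites, 0 were called by edgeR or limma (0% of all sites by edgeR). DESeq2 called 7 of 310, of which 1 was a Mef2d site, again offset 195 of Mef2d_2. At an unadjusted p under 0.05, 4 sites were lower and 0 higher, against 2.58% and 4.84% of all sites. The count was 2 when replicate 2 of either siRNA, or replicate 3 of DNMT3b siRNA, was left out. Groups did not overlap at 7 sites, all lower with DNMT3a siRNA, where the shares over all sites were 6.45% lower and 7.1% higher.

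Offset 195 of Mef2d_2, in the stretch ccaCGccag, had the smallest edgeR p of the 33 sites in this contrast. The DNMT3a siRNA libraries gave 7.79%, 7.71% and 8.30% and the DNMT3b siRNA libraries 11.5%, 11.3% and 12.8%, from 5692 to 10547 reads over all libraries. The log2 odds ratio was -0.64 ± 0.18 SE, with an adjusted p of 0.300 by edgeR and 0.0029 by DESeq2. DNMT3a siRNA was also below both other groups without overlap at offsets 82, 277 and 341 of Mef2d_2. The same held at offset 63 of Mef2d_1, which is the same CpG as offset 341 of Mef2d_2. At offset 277 the DNMT3b siRNA libraries gave 2.98%, 3.78% and 3.89% and the DNMT3a siRNA libraries 2.09%, 2.44% and 2.92% (edgeR adjusted p = 0.546).

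The distances between regions were also compared between siRNAs. The distance of Mef2c_1 from the Mef2d mean was 73.2 points ± 1.92 with DNMT3a siRNA, 72.6 ± 1.17 with DNMT3b siRNA and 72.9 ± 1.34 with negative siRNA (exact two-sided permutation p = 1.0 and 0.70 against negative siRNA, and 0.80 between them, n = 3 each). The distance of Mef2d_2 from Mef2d_1 was 12.6 points ± 0.66 with DNMT3a siRNA, 14.3 ± 0.22 with DNMT3b siRNA and 13.8 ± 0.47 with negative siRNA. For the latter, DNMT3a and DNMT3b siRNA did not overlap, and neither did DNMT3b and negative siRNA (exact permutation p = 0.10 each), while DNMT3a and negative siRNA overlapped (p = 0.20). Which groups overlapped, though not the order of their means, depended on offset 26 of Mef2d_1, the site with 71 to 124 reads. With that site left out, chosen after seeing the data, the distances were 13.2 points ± 0.67 with DNMT3a siRNA, 15.1 ± 0.36 with DNMT3b siRNA and 14.98 ± 0.78 with negative siRNA. DNMT3b and negative siRNA then overlapped (exact permutation p = 1.0), and DNMT3a siRNA lay below both without overlap (exact permutation p = 0.10 each). With reads pooled over a region the distance with DNMT3b siRNA was smaller, not larger, than with negative siRNA (-0.63 points).

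Among the transcription factor genes of the panel, the other members are Camta1 and Camta2, calmodulin-binding activators. Of their 93 tested sites, 0 were called by edgeR in any of the 3 comparisons, as with the 33 sites of Mef2c and Mef2d. Their median log2 odds ratio for DNMT3a siRNA against negative siRNA was 0.33, where the Mef2d entries had -0.52. Of the 93 sites, 43 lie in Camta1_1 (0.262%) and 34 in Camta2_1 (0.297%), near the non-CpG background of 0.198% over all regions. The DNMT3a siRNA libraries gave 0.183%, 0.605% and 0.177% in Camta1_1 (negative siRNA mean 0.226%). In Camta2_1 they gave 0.330%, 0.534% and 0.313% (negative siRNA mean 0.226%). In mean, Camta1_2 was higher with DNMT3a siRNA (0.333% against 0.179%) and Camta2_2 lower (12.6% against 13.1%).

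Likeness in the pattern over the 9 libraries was measured by Pearson's correlation of region levels, as a description over libraries that share their depth and DNA. Closest to Mef2c_1 were Myh7_1 (0.91), Myh6_2 (0.84) and Myh7b_2 (0.74). Closest to Mef2d_1 were Myh7_2 (0.63), NPPB_1 (0.49) and Tnnc1_2 (0.49), and closest to Mef2d_2 were Myh7_2 (0.57), Myh7b_2 (0.56) and Myh6_2 (0.48). Mef2d_1 and Mef2d_2, which share 4 CpG sites, had 0.79, and Mef2c_1 had 0.18 and 0.27 with them.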

How the data were processed

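The submitters' processing notes name FastQC, Bismark, Bowtie2 and the build mm10, while versions and settings are not given in the sources used here. For each cytosine the authors deposited coverage (a read count) and the percent with C and with T, per the file headers. Multiplying coverage by percent gave methylated reads, whole within 0.01 reads at 23884 of 23884 values.

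The edgeR package 4.0.16 (R 4.3.3) compared methylated with unmethylated reads (quasi-likelihood, a coefficient per library, all 9 libraries, no trend in dispersion), two-sided, over all 310 sites or 26 regions, with calls at a Benjamini-Hochberg adjusted p under 0.05. Errors are SDs between libraries, or standard errors of log2 odds ratios. Single levels and within-library differences were tested by exact permutation.

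Members and lists were chosen with earlier results of these data known. Named were each region, its highest and lowest site, the 3 sites with the smallest p per comparison, and regions like them in level or pattern; other sites were named after their values were seen. Also run were limma 3.58.1 (prior count 2), DESeq2 1.42.0, coverage minimums of 10 and 100, fits to 6 libraries, a replicate block, pooled reads and leaving out libraries. Replicate numbers were checked as pairs by the correlation of deviations from group means over sites. All 3 same-numbered pairs were over 0.1 for negative with DNMT3b siRNA (0.12 to 0.40) and DNMT3a with DNMT3b siRNA (0.17 to 0.33). For negative with DNMT3a siRNA, 1 of 3 was. The labels give no pairing, and these correlations do not establish one. The tests were tested on simulated data. RefSeq sequences are from GRCm38.p6.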

Additional observations from a re-analysis of the deposited data

How the results depend on the processing

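With replicate block terms in the model, the log2 odds ratio of Mef2d_2 for DNMT3a against negative siRNA was -0.38 (edgeR adjusted p = 0.136), and the block changed no call. For DNMT3a against negative siRNA, same-numbered libraries had correlations of -0.23 to 0.46 in their deviations over sites, over 0.1 in 1 of 3 pairs. Best matches were counted in 1 direction only, from negative siRNA to the other groups and from DNMT3a to DNMT3b siRNA. The best match bore the library's own number in 5 of 9 such cases. The labels do not say what the numbers mark, and so few correlations cannot decide it.

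DESeq2 called 4 sites for DNMT3a against negative siRNA and 7 for DNMT3a against DNMT3b siRNA, where edgeR called 0, and it called Mef2d_2 in the first (log2 odds ratio -0.38). The cause was not tested. With pooled reads, DNMT3b minus negative siRNA was 0.42 points for the distance of Mef2c_1 from Mef2d and -0.63 for that of Mef2d_2 from Mef2d_1. Without offset 26 of Mef2d_1, DNMT3a minus negative siRNA was -0.054 points for the distance of Mef2c_1 from Mef2d. The mean difference at the shared sites was 0.070 points at a coverage minimum of 100, which drops offset 26, and -0.26 to 0.13 over single libraries left out. Leaving out single libraries also changed the sign of small differences. Log2 odds ratios of Mef2c_1 ranged from -0.095 to 0.029 (DNMT3a against negative siRNA), -0.063 to 0.064 (DNMT3b against negative) and -0.071 to 0.0096 (DNMT3a against DNMT3b). The distance of Mef2c_1 from Mef2d differed by -0.56 to 1.32, -1.11 to 0.26 and -0.22 to 1.66 points in the same order. The differences in level between genes and between Mef2d regions kept their sign in all alternatives run, at 69.5 to 76.7 and 10.8 to 20.3 points, with the smallest p each allowed (exact sign-flip permutation, 0.0039 with 9 libraries and 0.0078 with 8). Depth limits offset 26 of Mef2d_1 most, at 71 to 124 reads.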

Other observations

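One cytosine outside CpG dinucleotides in Mef2d_1, at offset 415 in the context CTG, was read as C in 86.1% ± 3.28 of reads (SD, n = 9), with 81 to 142 reads. It ranged from 81.5% to 90.1% in all 9 libraries, where the highest other non-CpG cytosine of the region with at least 30 reads averaged 0.661%. The groups overlapped, with 82.6%, 82.0% and 88.4% in negative siRNA, 81.5%, 89.2% and 87.8% in DNMT3a siRNA and 86.1%, 87.3% and 90.1% in DNMT3b siRNA. It is not part of any CpG value given here.

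Over the 9 libraries, the values of the shared CpG sites in the 2 Mef2d regions were most alike at the more methylated sites. Pearson's correlation was 0.90 at offset 304 or 26 and 0.85 at offset 341 or 63, and 0.57 and -0.03 at the less methylated offsets 352 or 74 and 355 or 77. These are descriptions over libraries whose DNA both regions share, and reads of either amplicon may enter both.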
